A study of Mus musculus with 15 samples.

Results

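Cyclins, cyclin-dependent kinases (CDKs), CDK inhibitors, the RB family and the E2F factors were followed as 47 genes, taken by symbol from a list out of 56967 gene names. They comprised 17 cyclins, 14 CDKs, 5 CDK inhibitors, the CDK-binding phosphatase CDKN3, 3 RB family genes and 7 E2F genes. The rule goes by symbol and uses no measured value, although the list was drawn up with earlier results of these data known. All 47 had enough counts to be tested among 19051 genes. Polyadenylated RNA was sequenced in 15 libraries from cells labelled MDA-MB-468, a human breast cancer cell line of the basal-like type, kept in medium with serum. The groups were 2 hairpin sets against SHCBP1 (shSHCBP1_1 and shSHCBP1_2), 2 against TMEM45A (called set 4 and set 2 after their column numbers) and a control hairpin (NC), with 3 libraries each. Hairpins were introduced by transfection. The labels do not tie the 3 libraries of a group to separate cultures, so the p-values rest on spread between libraries that may be technical only.

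Cyclins bind CDKs and switch them on, and their levels rise and fall through the cell cycle. In G1, D-type cyclins with CDK4 or CDK6, and then E-type cyclins with CDK2, phosphorylate RB and its relatives, which releases E2F factors to transcribe genes for DNA replication. Cyclin A with CDK2 or CDK1 and cyclin B with CDK1 then drive S phase and mitosis, and the INK4 and CIP/KIP inhibitors hold the kinases back. Other cyclin and CDK pairs act on RNA polymerase II and Mediator rather than on the cycle. In breast cancer the CDK4 and CDK6 step is a drug target.

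SHCBP1 mRNA averaged 47.1 ± 1.24 CPM (counts scaled to a common library size with TMM factors) in shSHCBP1_1 and 44.3 ± 1.12 CPM in shSHCBP1_2, against 44.1 ± 2.53 CPM in NC (SD, n = 3 each). Neither difference passed the test, so these 6 are called the libraries labelled shSHCBP1. TMEM45A averaged 17.8 ± 1.86 CPM in set 4 and 19.4 ± 0.761 CPM in set 2, against 26.6 ± 2.09 CPM in NC (log2 change -0.58 with adjusted p = 8.8e-06 in set 4, and -0.46 with 0.000181 in set 2). Of all genes tested, 38.9% passed as lower in set 4 and 39.8% in set 2. SHCBP1 was higher there, with log2 changes of 0.25 (adjusted p = 0.00355) in set 4 and 0.44 (adjusted p = 3.7e-06) in set 2. The shTMEM45A libraries stand in a count table of their own, while NC shares a table with the libraries labelled shSHCBP1. Target and table therefore cannot be told apart in any comparison of shTMEM45A with NC. The first principal component, with 75.6% of the variance, separated the shTMEM45A libraries from all others. Library totals ran from 13780294 to 16484000 counts.

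Several markers went against the cell line label. MDA-MB-468 is known for loss of RB1 and amplification of EGFR, whereas RB1 had at least 167 counts in every library and EGFR stood at 6.96 to 17.5 CPM. Of 20 breast epithelial and basal-like markers, KRT5, KRT6A, KRT6B and KRT16 had 0 counts in all 15 libraries and 9 of the 20, these included, stayed under 1 CPM, while KRT8 stood at 78 to 176 CPM. The summed level of these 20 was 332 to 380 CPM in set 4 and 346 to 384 CPM in set 2, against 174 to 179 CPM in NC. In shSHCBP1_1 and shSHCBP1_2 it was 187 to 204 CPM. KRT8 and KRT18 made up most of this sum. KRT8 was at 151 to 176 CPM in set 4 and 154 to 171 CPM in set 2, against 78 to 80.1 CPM in NC. KRT18 was at 132 to 151 CPM and 147 to 163 CPM, against 43.8 to 45.7 CPM in NC. CDH1 and EGFR went the other way. CDH1 was at 6.79 to 9.6 CPM in set 4 and 5.63 to 8.94 CPM in set 2, against 10.6 to 12.8 CPM in NC. EGFR was at 6.96 to 9.62 CPM and 8.79 to 9.65 CPM, against 15.2 to 17.5 CPM in NC. Of 8 neuronal and embryonic kidney genes UCHL1, NEFM, NEFL, INA and PAX2 stood above 10 CPM in every library, while NEFH and STMN2 stayed under 2 CPM. UCHL1 was at 359 to 372 CPM in set 4 and 374 to 383 CPM in set 2, against 150 to 167 CPM in NC. NEFM was at 97.8 to 117 CPM in set 4 and 69 to 78.1 CPM in set 2, against 252 to 260 CPM in NC, and NEFL at 62.2 to 70.6 CPM and 53.3 to 59.2 CPM, against 170 to 181 CPM in NC. LHX1 was at 1.23 to 2.78 CPM in set 4 and 1.38 to 2.39 CPM in set 2, against 6.04 to 7.05 CPM in NC. The 8 summed to 614 to 621 CPM in shSHCBP1_1, 552 to 576 CPM in shSHCBP1_2, 580 to 614 CPM in set 4 and 567 to 581 CPM in set 2, against 651 to 656 CPM in NC. Of 8 fibroblast markers 7 stayed under 1 CPM and COL1A1 did not, and their sum was 29.8 to 35 CPM in set 4 and 30.6 to 32.4 CPM in set 2, against 46.5 to 49.6 CPM in NC. The fibroblast sum was 47 to 52.8 CPM in shSHCBP1_1 and 48.8 to 51.4 CPM in shSHCBP1_2. Of the leukocyte markers, PTPRC was at 0 in every library, CD3E and LYZ stayed under 1 CPM and ITGAM under 2 CPM. CD14 was at 0.755 to 1.22 CPM in shSHCBP1_1, 1.85 to 2.64 CPM in shSHCBP1_2, 2.27 to 4.5 CPM in set 4 and 3.78 to 6.34 CPM in set 2, against 0.276 to 0.35 CPM in NC. The 4 endothelial markers summed to at most 2.14 CPM. The part of any of these in the results below was not tested. The labels name the mouse as organism, but the tables carry human gene symbols.

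In the shTMEM45A libraries most of the 47 genes differed from NC, and falls outnumbered rises. In bulk RNA, fewer cells of a type and less RNA per cell cannot be told apart. In set 4, 15 passed as higher and 26 as lower, where 35.6% and 38.9% of all genes tested did. In set 2, 14 were higher and 27 lower, against a background of 36.1% and 39.8%. Both sets called 14 genes higher and 26 lower in the same direction, where 32.6% and 36.2% of all genes tested did so. The share of rises among the 47 (29.8% in set 2) thus lay near or below the background and the share of falls (57.4%) above it. The median log2 change of the 47 was -0.28 in set 4 and -0.36 in set 2, beside -0.03 and -0.04 over all genes. More than 2-fold, 9 were lower and 2 higher in each set, and in set 2 21.5% of all genes were that much lower and 20.1% that much higher. Of the calls shared by both sets, 12 of 14 rises and 24 of 26 falls held under each of 4 library scalings. Leaving out single libraries ended 4 calls: CDK16 and CCNH in set 4, and E2F4 and CDK12 in set 2. A total-count scaling shifted the median of all genes by -0.19 in both sets.

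For the libraries labelled shSHCBP1 the changes were smaller and fewer. In shSHCBP1_1, 7 of the 47 were higher and 11 lower, where 9.34% and 10.5% of all genes were. In shSHCBP1_2, 8 were higher and 12 lower, where 15.6% and 15.4% were. Both sets called 6 genes higher and 7 lower, against 8.3% and 9.45% of all genes. No member passed with a change of more than 2-fold. Few of all genes did, with 1.46% higher and 0.247% lower in shSHCBP1_1 and 2.7% and 1.19% in shSHCBP1_2. The balance of rises and falls followed the scaling. RLE gave 4 higher and 18 lower in shSHCBP1_1 and 6 and 19 in shSHCBP1_2, while total counts gave 12 and 2 in shSHCBP1_1 and 20 and 5 in shSHCBP1_2. All genes tested followed the scaling too. Of the 19051, RLE gave 1271 higher and 3091 lower in shSHCBP1_1 and 2222 and 4193 in shSHCBP1_2. With total counts these were 4080 and 658 in shSHCBP1_1 and 5552 and 1243 in shSHCBP1_2. Total counts shifted the median of all genes by 0.14 and 0.17. CCND1, CCNF, CDKN1B and CDKN3 rose, and CCNL1 and CDK16 fell, in both sets under all 4 scalings. Leaving out 1 library left 9 to 13 calls of 18 in shSHCBP1_1, with 9 without its library 1 and 10 without NC library 2. Abundant genes are called more readily. Among the 13853 genes that reached a count minimum of 50, all 47 included, the background was 13.8% higher and 13.8% lower for shSHCBP1_1, where 7 and 10 of the 47 passed, and 21% higher and 20.2% lower for shSHCBP1_2, where 9 and 12 did.

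**Figure D1:**
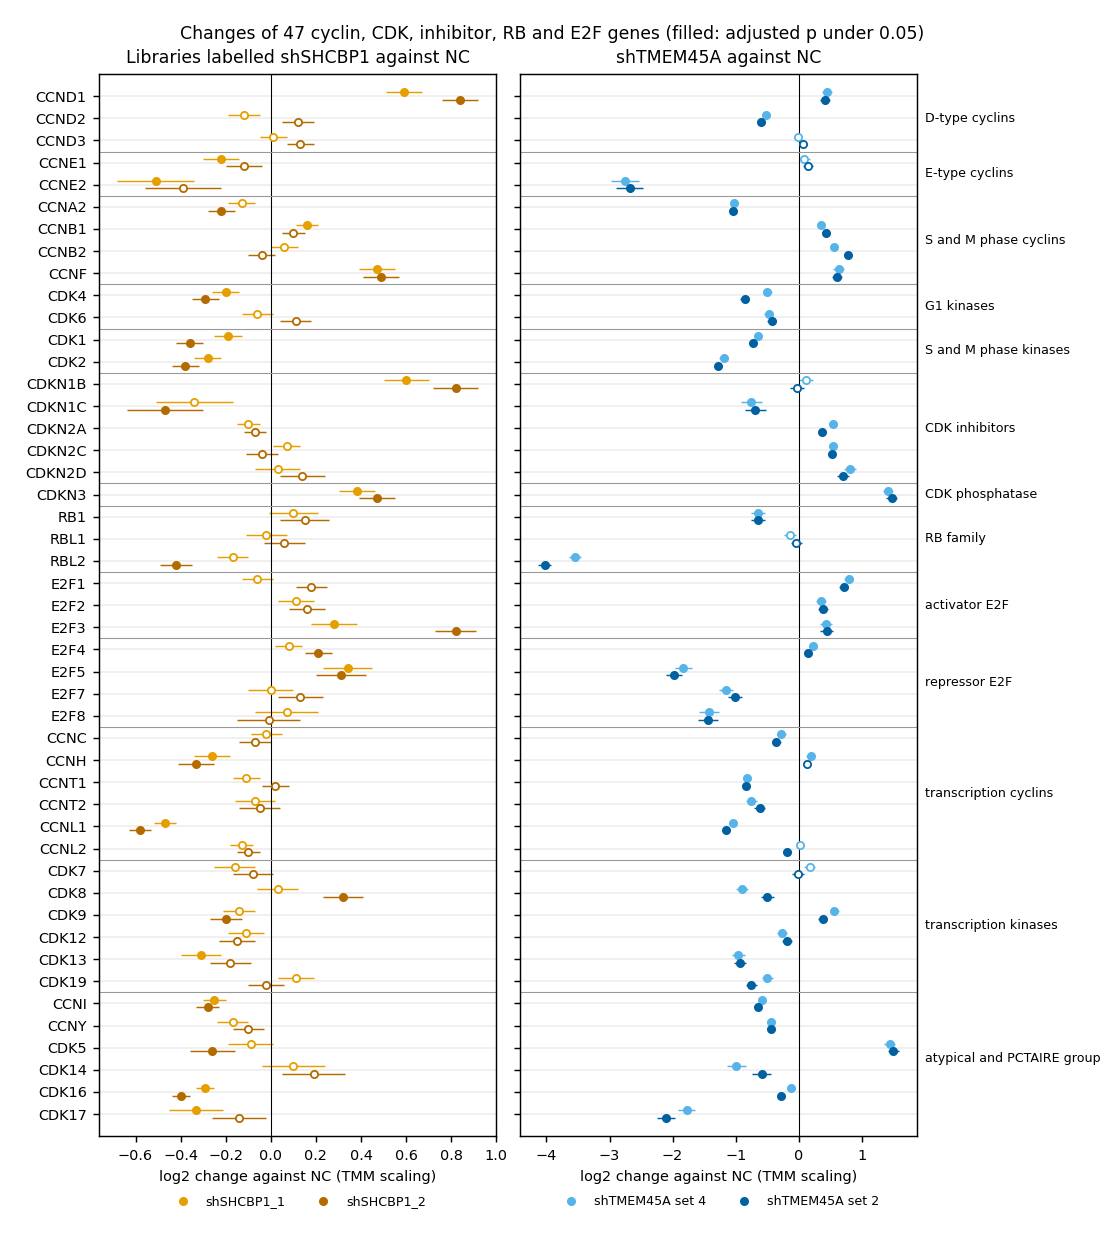
Log2 change against NC of each of the 47 genes, in the libraries labelled shSHCBP1 (left) and in shTMEM45A (right, wider axis), grouped by role. Points are edgeR estimates with bars of 1 SE, and filled points passed an adjusted p of 0.05. In shTMEM45A the points of both sets lie close together, with RBL2 and CCNE2 lowest and CDK5 and CDKN3 highest.

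Transcript length moved with the shTMEM45A changes. Lengths were those of the longest coding transcript of the mouse gene of the same symbol. They were known for 83.3% of the 13039 genes with a mean count of at least 50. The shortest 20% of these had a median log2 change of 0.80 in set 4 and 0.79 in set 2, and the longest 20% had -0.68 and -0.70. The same medians lay between -0.06 and -0.02 in the libraries labelled shSHCBP1. The 47 genes had lengths of 895 to 12548 nt. With the length trend subtracted, the median change of the 47 was -0.08 in set 4 and -0.11 in set 2. Of the 40 genes called in both sets, 30 kept their sign in both sets, 7 had the opposite sign in both (CCND2, CCNY, CDK6, CDK12, CDK13, CDKN2A and E2F4), and 3 in 1 set (CCNT2, CDK9 and CDK19). The part of length in the changes was not tested. The 11 genes over 2-fold kept their direction. This subtraction was added after the data were seen. Among the 47 genes, values with the trend subtracted are given below for RBL2 and for the shTMEM45A values that it turned in sign or moved by over 1.5 times. Genes outside the 47, and the medians of their lists, are given without it.

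**Figure D2:**
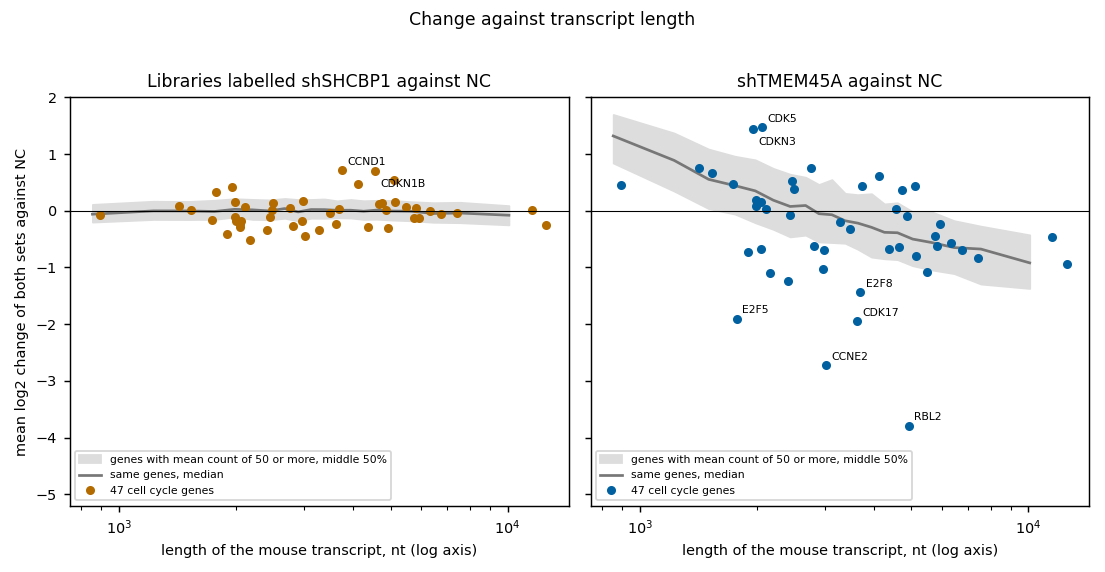
Mean log2 change of both sets against NC (vertical) by transcript length on a log axis, for the libraries labelled shSHCBP1 (left) and for shTMEM45A (right). The line and band give the median and middle 50% of genes with a mean count of 50 or more in 20 bins of length. The line falls with length for shTMEM45A and stays near 0 for the libraries labelled shSHCBP1, and RBL2, CCNE2, E2F5 and CDK17 lie far below the band.

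The D-type cyclins link growth signals to CDK4 and CDK6, and the 3 genes did not move together. CCND1 was at 42.3, 44.2 and 44.5 CPM in the shSHCBP1_1 libraries and 52.4, 51.2 and 51.8 CPM in the shSHCBP1_2 libraries, against 28.5, 28.1 and 30.4 CPM in NC. Every library labelled shSHCBP1 lay above every NC library, with log2 changes of 0.59 (SE 0.08, adjusted p = 1.7e-06) and 0.84 (SE 0.08, adjusted p = 9.8e-10). In shTMEM45A, CCND1 was at 44.5, 37.1 and 36.8 CPM in set 4 and 40.5, 37.2 and 38.8 CPM in set 2, again above NC, and rose by 0.45 and 0.42 (adjusted p = 9.7e-06 and 2.2e-05), or by 0.67 and 0.66 with the length trend subtracted. CCND2 fell in shTMEM45A, to 38.9 to 45.4 CPM in set 4 and 36.8 to 42.4 CPM in set 2 against 55.6 to 65 CPM in NC, by 0.52 and 0.60 on the log2 scale. With the length trend subtracted its changes were 0.10 and 0.05. CCND2 passed in neither set labelled shSHCBP1 (-0.12 and 0.12), and CCND3 in none of the 4 sets, with log2 changes of 0.01, 0.13, -0.01 and 0.06 (-0.24 and -0.15 in shTMEM45A with the trend subtracted). Counts of CCND2 per count of CCND1, a ratio read only between libraries, were 1.25 to 1.31 in shSHCBP1_1, 1.24 to 1.31 in shSHCBP1_2, 0.874 to 1.23 in set 4 and 0.908 to 1.14 in set 2, against 1.98 to 2.29 in NC.

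The E-type cyclins activate CDK2 at the entry to S phase. CCNE2 was at 1.51, 1.76 and 2.06 CPM in the set 4 libraries and 2.18, 1.13 and 2.32 CPM in the set 2 libraries, against 10.7, 12.9 and 12.5 CPM in NC. The groups lay far apart, and CCNE2 fell 6.77-fold in set 4 and 6.4-fold in set 2, log2 changes of -2.76 (SE 0.22, adjusted p = 9.6e-13) and -2.68 (SE 0.21, adjusted p = 1.3e-12). In the libraries labelled shSHCBP1 it was at 8.43, 6.75 and 10.1 CPM in shSHCBP1_1 and 9.27, 8.93 and 9.39 CPM in shSHCBP1_2, below every NC library. The change passed in shSHCBP1_1 (-0.51, SE 0.17, adjusted p = 0.0338) but not in shSHCBP1_2 (-0.39, SE 0.17, adjusted p = 0.0851), and the call in shSHCBP1_1 was lost without any 1 of 4 libraries. CCNE1 did not pass in shTMEM45A (log2 changes 0.09 and 0.15, or -0.19 and -0.11 with the length trend subtracted). In shSHCBP1_1 it was lower by 0.22 (adjusted p = 0.0404), a call kept in 1 of 6 fits that left out a library. Counts of CCNE2 per count of CCNE1 were 0.0284 to 0.0432 in set 4 and 0.0234 to 0.044 in set 2, against 0.243 to 0.276 in NC. This and the other ratios of related genes were picked after their values were seen and carry no test.

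Cyclin A2 and the B-type cyclins, which drive S phase and mitosis, went opposite ways in shTMEM45A. CCNA2 was at 74.2, 76 and 78.7 CPM in the set 4 libraries and 65.5, 77.9 and 82.2 CPM in the set 2 libraries, against 156, 160 and 149 CPM in NC. All 6 shTMEM45A libraries lay below every NC library, with log2 changes of -1.02 (SE 0.06, adjusted p = 5.9e-15) and -1.04 (SE 0.06, adjusted p = 3.3e-15). CCNB1 stood at 204 to 213 CPM in set 4 and 211 to 229 CPM in set 2, against 159 to 169 CPM in NC, and rose by 0.35 and 0.43 on the log2 scale (adjusted p = 1.2e-07 and 2.6e-09). CCNB2 rose by 0.56 and 0.78 (adjusted p = 2.8e-10 and 1.1e-13), but its values were 0.01 and 0.24 with the length trend subtracted. Counts of CCNA2 per count of CCNB1 were 0.364 to 0.369 in set 4 and 0.286 to 0.389 in set 2, against 0.917 to 1.01 in NC.

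CCNA2 was lower in shSHCBP1_2 (-0.22, adjusted p = 0.00629), and its change in shSHCBP1_1 was -0.13 (adjusted p = 0.129). CCNB1 was higher in shSHCBP1_1 (0.16, adjusted p = 0.0167), a call kept in 3 of 6 fits that left out a library, and CCNB2 passed in neither set. CCNF, a cyclin-like F-box protein that marks substrates for destruction in G2, was at 60, 60.9 and 53.3 CPM in the shSHCBP1_1 libraries and 60.7, 60.7 and 55.5 CPM in the shSHCBP1_2 libraries, against 38.2, 42.2 and 45.4 CPM in NC. It rose by 0.47 (SE 0.08, adjusted p = 3.7e-05) and 0.49 (SE 0.08, adjusted p = 8.8e-06). CCNF also rose in shTMEM45A, at 67.2, 62.1 and 65.9 CPM in set 4 and 66, 58 and 66.8 CPM in set 2, by 0.63 and 0.60 (adjusted p = 1.2e-08 and 3.3e-08), or by 0.94 and 0.93 with the length trend subtracted. All libraries of the 4 sets lay above every NC library.

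**Figure D3:**
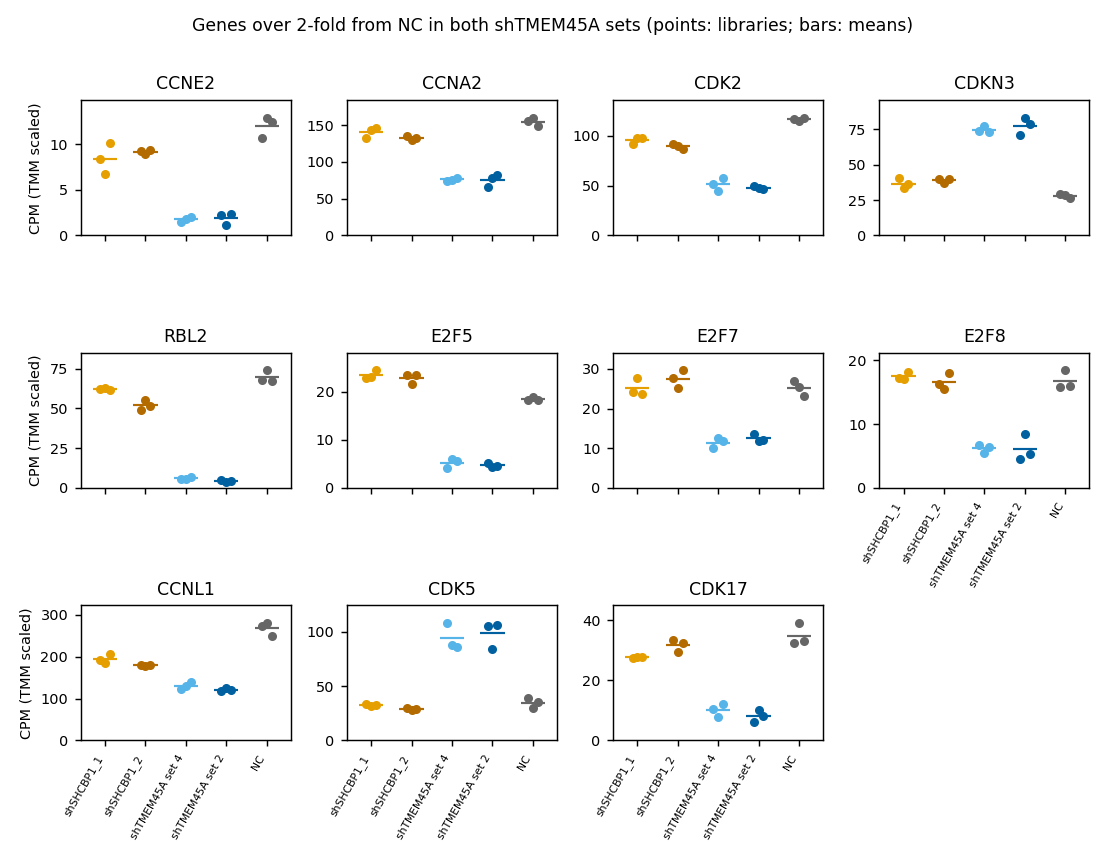
Level of the 11 genes that changed over 2-fold in both shTMEM45A sets, as TMM-scaled CPM from 0, in every library of the 5 groups. Points are libraries and bars are means. CDK5 and CDKN3 stand above all other groups in shTMEM45A and the other 9 genes stand below.

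All 4 kinases that cyclins activate in the cycle fell in shTMEM45A. CDK2, the partner of cyclins E and A, was at 51.5, 44.8 and 57.3 CPM in the set 4 libraries and 49.6, 47.3 and 46.7 CPM in the set 2 libraries, against 117, 115 and 118 CPM in NC. Its log2 changes were -1.19 (SE 0.07, adjusted p = 5.3e-16) and -1.28 (SE 0.07, adjusted p = 7.9e-17), and no shTMEM45A library reached the lowest NC value. CDK1, the mitotic kinase, was at 139, 143 and 128 CPM in the set 4 libraries and 120, 133 and 133 CPM in the set 2 libraries, against 217, 224 and 197 CPM in NC. It fell by 0.64 and 0.73 (adjusted p = 1.7e-10 and 8.9e-12), or by 0.29 and 0.35 with the length trend subtracted. CDK4, a G1 kinase, was at 90.6, 91 and 87.1 CPM in the set 4 libraries and 80.2, 66.3 and 63.5 CPM in the set 2 libraries, against 129, 123 and 128 CPM in NC. The changes were -0.50 (SE 0.07, adjusted p = 6.1e-08) and -0.86 (SE 0.07, adjusted p = 8.5e-13), or -0.76 and -1.09 with the length trend subtracted, and set 2 was lower than set 4 (log2 difference -0.36, SE 0.07, adjusted p = 0.00145).

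CDK6, the other G1 kinase, was at 41.3, 44.3 and 40.8 CPM in the set 4 libraries and 43.2, 45.5 and 41.8 CPM in the set 2 libraries, against 62.5, 60.2 and 53.6 CPM in NC. It fell by 0.48 and 0.43 (adjusted p = 7.4e-07 and 3.5e-06). With the length trend subtracted (mouse transcript of 11525 nt), CDK6 turned in sign, to 0.50 and 0.59. For the libraries labelled shSHCBP1 it was at 52.4, 57 and 59.2 CPM in shSHCBP1_1 and 65.6, 61.5 and 63.1 CPM in shSHCBP1_2 and passed in neither set.

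CDK2, CDK1 and CDK4 were also lower in the libraries labelled shSHCBP1, by less, and the direct test of shTMEM45A against these sets called all 3 lower in shTMEM45A (-0.90, -0.40 and -0.44). With the length trend subtracted that difference was -0.96 for CDK2 and -0.64 for CDK4, but 0.00 for CDK1. CDK2 was at 92, 97.9 and 97.9 CPM in the shSHCBP1_1 libraries and 92, 89.6 and 86.3 CPM in the shSHCBP1_2 libraries, against 117, 115 and 118 CPM in NC, with log2 changes of -0.28 (SE 0.06, adjusted p = 0.00199) and -0.38 (SE 0.06, adjusted p = 2.9e-05). CDK1 was at 183, 174 and 201 CPM in the shSHCBP1_1 libraries and 177, 158 and 163 CPM in the shSHCBP1_2 libraries, against 217, 224 and 197 CPM in NC, with changes of -0.19 (SE 0.06, adjusted p = 0.0243) and -0.36 (SE 0.06, adjusted p = 3.4e-05). In shSHCBP1_1 its values overlapped with NC. CDK4 was at 110, 107 and 116 CPM in shSHCBP1_1 and 109, 102 and 101 CPM in shSHCBP1_2, with changes of -0.20 (SE 0.06, adjusted p = 0.0302) and -0.29 (SE 0.06, adjusted p = 0.000966). With total counts the 3 changes in shSHCBP1_1 kept their sign but did not pass: CDK2 gave -0.14 (adjusted p = 0.127), CDK1 -0.05 (adjusted p = 0.593) and CDK4 -0.05 (adjusted p = 0.596). The calls of CDK1 and CDK4 in shSHCBP1_1 were kept in 2 of 6 fits that left out a library, with adjusted p of up to 0.166 and 0.132.

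Among the inhibitors, CDKN1B rose in the libraries labelled shSHCBP1, and 3 INK4 genes rose in shTMEM45A. CDKN1B encodes p27, which binds cyclin E and cyclin A complexes of CDK2. It was at 24, 29 and 30.5 CPM in the shSHCBP1_1 libraries and 32.4, 33.3 and 31.4 CPM in the shSHCBP1_2 libraries, against 17.5, 20.7 and 16.9 CPM in NC, and all 6 libraries labelled shSHCBP1 lay above NC. The log2 changes were 0.60 (SE 0.10, adjusted p = 1.0e-04) and 0.82 (SE 0.10, adjusted p = 4.0e-07), and both passed under all 4 scalings and without any 1 library. In shTMEM45A it was at 19.6, 21.5 and 18.2 CPM in set 4 and 17.8, 16.5 and 19.5 CPM in set 2, which overlapped with NC, and did not pass (0.11 and -0.03, or 0.49 and 0.38 with the length trend subtracted). The mean of the shTMEM45A sets was lower than that of the sets labelled shSHCBP1 (log2 difference -0.67, SE 0.07, adjusted p = 1.6e-09), or -0.24 with the length trend subtracted.

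CDKN2A, whose locus encodes the INK4 inhibitor p16 and the unrelated protein ARF from overlapping transcripts, was at 703, 688 and 669 CPM in the set 4 libraries and 669, 540 and 594 CPM in the set 2 libraries, against 472, 453 and 480 CPM in NC. It rose by 0.55 (SE 0.05, adjusted p = 5.9e-11) and 0.36 (SE 0.05, adjusted p = 3.1e-07). Its mouse transcript, at 895 nt, is the shortest of the 47, and the values with the length trend subtracted were -0.58 and -0.79. The libraries labelled shSHCBP1 held 421 to 453 CPM in shSHCBP1_1 and 443 to 450 CPM in shSHCBP1_2, and neither set passed. CDKN2C, which encodes the INK4 inhibitor p18, rose in shTMEM45A by 0.54 and 0.52 (adjusted p = 1.2e-08 and 2.2e-08). CDKN2D, which encodes another INK4 inhibitor, rose by 0.81 and 0.70 (adjusted p = 1.6e-08 and 2.3e-07), or by 0.19 and 0.09 with the trend subtracted. CDKN1C, which encodes p57, fell by 0.75 and 0.69 (adjusted p = 0.000347 and 0.000705). In set 2 its libraries spread from 6.25 to 13.2 CPM, and the change ran from -1.01 to -0.47 as single libraries were left out. In shSHCBP1_2 CDKN1C was lower, with a log2 change of -0.47 (adjusted p = 0.0319), a call kept in 2 of 6 fits that left out a library.

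CDKN3 encodes a phosphatase that removes the activating phosphate from CDK1 and CDK2. It was at 74, 77.8 and 73.1 CPM in the set 4 libraries and 70.8, 83.2 and 79 CPM in the set 2 libraries, against 29.1, 28.8 and 26.4 CPM in NC, a rise of 2.67-fold in set 4 and 2.76-fold in set 2. The log2 changes were 1.42 (SE 0.08, adjusted p = 2.9e-16) and 1.47 (SE 0.08, adjusted p = 9.8e-17). In the libraries labelled shSHCBP1 it was at 40.3, 33.4 and 36.1 CPM in shSHCBP1_1 and 40.1, 36.9 and 40 CPM in shSHCBP1_2, between the shTMEM45A and NC libraries with no overlap. There it rose by 0.38 (SE 0.08, adjusted p = 0.00091) and 0.47 (SE 0.08, adjusted p = 3.8e-05).

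RBL2, which encodes p130, the RB relative that holds E2F target genes silent in resting cells, showed the deepest fall of the 47. It was at 5.49, 5.79 and 6.57 CPM in the set 4 libraries and 4.8, 3.45 and 4.58 CPM in the set 2 libraries, against 68.1, 73.8 and 67.2 CPM in NC. The level was 11.7-fold lower in set 4 and 16.3-fold lower in set 2, with log2 changes of -3.55 (SE 0.10, adjusted p = 9.2e-24) and -4.03 (SE 0.10, adjusted p = 1.4e-24), or -3.11 and -3.55 with the length trend subtracted. In shSHCBP1_2 it was at 49.2, 55.2 and 51.7 CPM and fell, with a log2 change of -0.42 (SE 0.07, adjusted p = 4.3e-05), and in shSHCBP1_1 at 62, 62.6 and 61.3 CPM with a change of -0.17 (SE 0.07, adjusted p = 0.1) that did not pass. RB1, the founding member, was at 15.4, 14.4 and 12.7 CPM in the set 4 libraries and 14.5, 16.1 and 12.1 CPM in the set 2 libraries, against 21.4, 22.5 and 22.6 CPM in NC. It fell by 0.64 and 0.64 (adjusted p = 8.6e-06 and 9.0e-06), or by 0.24 and 0.21 with the length trend subtracted. Reads of its divergent neighbour RB1-DT, which cannot be separated without strand where they overlap, came to at most 8.98% of its counts. RB1 stood at 22.5 to 26 CPM in shSHCBP1_1 and 23.3 to 27.2 CPM in shSHCBP1_2 and did not pass. RBL1, which encodes p107, passed in none of the 4 sets, with log2 changes of -0.02, 0.06, -0.14 and -0.04 (0.29 and 0.42 in shTMEM45A with the trend subtracted). Counts of RBL2 per count of RBL1 were 0.156 to 0.234 in set 4 and 0.105 to 0.151 in set 2, against 1.92 to 2.14 in NC.

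The activator E2Fs rose in shTMEM45A, and 3 of the 4 repressor E2Fs followed here (E2F4, E2F5, E2F7 and E2F8) fell. E2F6 was not among the genes counted. E2F1 stood at 195 to 208 CPM in set 4 and 166 to 220 CPM in set 2, against 109 to 127 CPM in NC, and rose by 0.79 and 0.71 (adjusted p = 1.4e-11 and 1.6e-10). E2F2 rose by 0.35 and 0.38 (adjusted p = 0.00016 and 5.1e-05), although not in set 4 with total counts (0.15, adjusted p = 0.064). E2F3 was at 33.2, 36.1 and 28.8 CPM in the set 4 libraries and 31.8, 37 and 29.6 CPM in the set 2 libraries, against 23.5, 25.6 and 23.6 CPM in NC, and rose by 0.43 and 0.44 (adjusted p = 0.000185 and 0.000159). E2F1 and E2F2 passed in neither set labelled shSHCBP1. With the length trend subtracted the rises of E2F2 and E2F3 were larger, at 0.76 and 0.82 for E2F2 and 0.90 and 0.93 for E2F3.

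E2F3 also rose in the libraries labelled shSHCBP1, and there the sets differed. It was at 29.9, 26.6 and 31.4 CPM in the shSHCBP1_1 libraries and 43.3, 43.9 and 41.1 CPM in the shSHCBP1_2 libraries, against 23.5, 25.6 and 23.6 CPM in NC. The change was 0.28 (SE 0.10, adjusted p = 0.0398) in shSHCBP1_1 and 0.82 (SE 0.09, adjusted p = 5.7e-08) in shSHCBP1_2. The set difference was 0.54 (SE 0.09, adjusted p = 0.00175), with no overlap of libraries, and passed without any 1 library. The smaller change in shSHCBP1_1 did not pass with RLE scaling (0.21) and was kept in 2 of 6 fits that left out a library, with adjusted p of up to 0.182.

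E2F5, a repressor E2F that binds p130, was at 4.05, 6.01 and 5.57 CPM in the set 4 libraries and 5.16, 4.37 and 4.5 CPM in the set 2 libraries, against 18.3, 18.8 and 18.3 CPM in NC. It fell 3.55-fold in set 4 and 3.94-fold in set 2, with log2 changes of -1.83 (SE 0.13, adjusted p = 1.6e-13) and -1.98 (SE 0.13, adjusted p = 3.1e-14). For the libraries labelled shSHCBP1 it lay above NC, at 22.8, 23 and 24.4 CPM in shSHCBP1_1 and 23.5, 21.5 and 23.4 CPM in shSHCBP1_2, with changes of 0.34 (SE 0.11, adjusted p = 0.0263) and 0.31 (SE 0.11, adjusted p = 0.0335). Those rises did not pass with RLE scaling, and they were kept in 0 of 6 fits that left out a library in shSHCBP1_1 (adjusted p = 0.057 to 0.109) and in 1 of 6 in shSHCBP1_2 (adjusted p = 0.0439 to 0.107). The test of shTMEM45A against shSHCBP1 means gave -2.23 (SE 0.09, adjusted p = 8.3e-20). E2F4, its closest relative, changed by 0.22 and 0.15 in shTMEM45A (adjusted p = 0.00298 and 0.033), did not pass there with total counts, was kept in set 2 in 1 of 6 fits that left out a library, and reversed to -0.07 and -0.11 with the length trend subtracted. In shSHCBP1_2 E2F4 was higher (0.21, adjusted p = 0.0103), but not without NC library 2 (adjusted p = 0.0516). Counts of E2F5 per count of E2F4 were 0.046 to 0.0749 in set 4 and 0.0542 to 0.0633 in set 2, against 0.246 to 0.268 in NC.

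E2F7 and E2F8, the atypical E2Fs that repress E2F1 targets late in S phase, fell together. E2F7 was at 9.95, 12.5 and 11.7 CPM in the set 4 libraries and 13.7, 11.9 and 12 CPM in the set 2 libraries, against 27, 25.4 and 23.2 CPM in NC. It changed by -1.15 (SE 0.11, adjusted p = 2.0e-10) and -1.01 (SE 0.11, adjusted p = 2.3e-09), or by -0.63 and -0.45 with the length trend subtracted. E2F8 was at 6.79, 5.5 and 6.41 CPM in the set 4 libraries and 4.58, 8.45 and 5.3 CPM in the set 2 libraries, against 15.8, 18.4 and 15.9 CPM in NC. It changed by -1.42 (SE 0.16, adjusted p = 2.2e-09) and -1.44 (SE 0.16, adjusted p = 1.4e-09). The libraries labelled shSHCBP1 overlapped with NC for both genes, and neither passed.

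**Figure D4:**
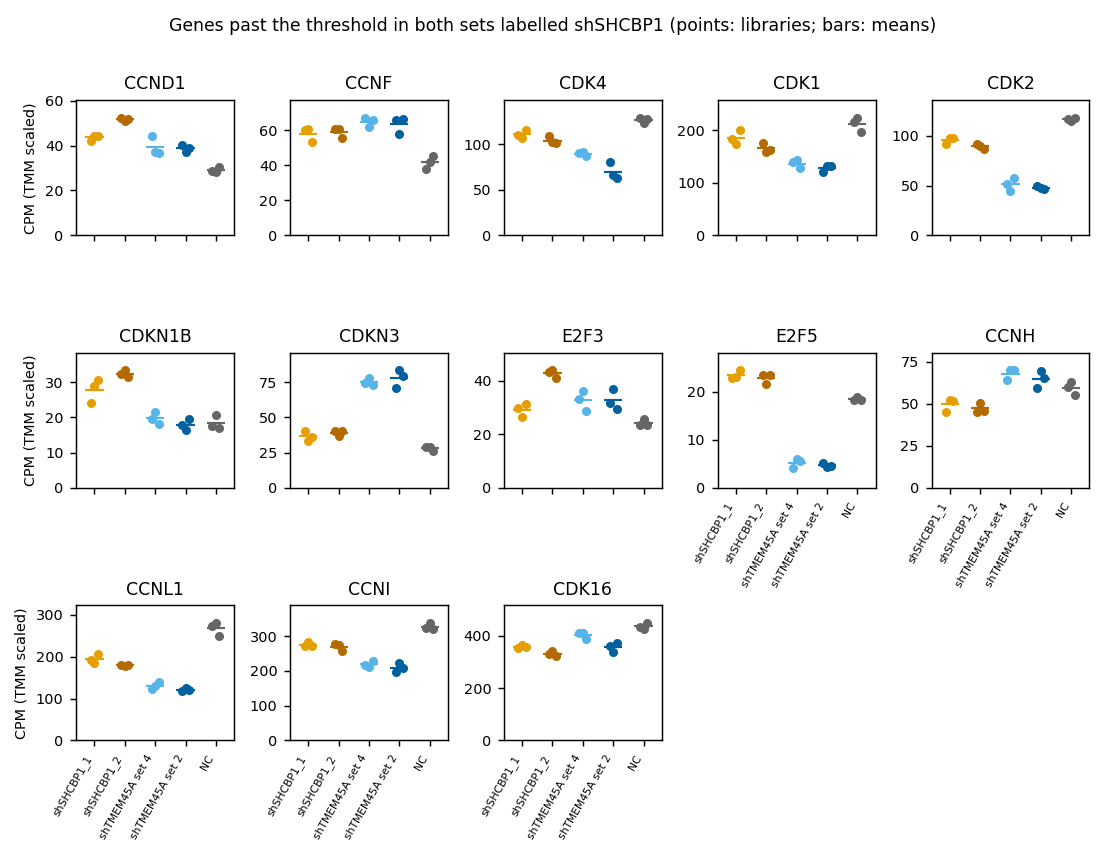
Level of the 13 genes that passed in the same direction in both sets labelled shSHCBP1, as TMM-scaled CPM from 0, in every library of the 5 groups. Points are libraries and bars are means. CDKN1B lies above NC in the shSHCBP1 sets and overlaps with it in shTMEM45A, CCNF and CDKN3 lie above NC in all 4 hairpin sets, and E2F5 is above NC in shSHCBP1 and far below it in shTMEM45A.

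Transcription cyclins fell in shTMEM45A in 4 of 6 cases. CCNL1, a cyclin of the splicing-linked CDK11, was at 122, 130 and 139 CPM in the set 4 libraries and 118, 125 and 120 CPM in the set 2 libraries, against 274, 280 and 250 CPM in NC. Its log2 changes were -1.04 (SE 0.06, adjusted p = 1.1e-16) and -1.15 (SE 0.06, adjusted p = 9.4e-18). The libraries labelled shSHCBP1 lay between, at 191, 184 and 206 CPM in shSHCBP1_1 and 181, 177 and 181 CPM in shSHCBP1_2, with changes of -0.47 (SE 0.05, adjusted p = 2.1e-07) and -0.58 (SE 0.05, adjusted p = 1.4e-09). No library of the 4 sets reached the lowest NC value, and the falls passed under all 4 scalings. Its paralogue CCNL2 passed in set 2 (-0.18, adjusted p = 0.00538), and not in set 4 (0.02, or -0.08 with the length trend subtracted).

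CCNT1 and CCNT2, cyclins of the elongation factor P-TEFb, fell in shTMEM45A by 0.82 and 0.84 for CCNT1 and by 0.75 and 0.62 for CCNT2. The values with the length trend subtracted were -0.12 and -0.10 for CCNT1 and -0.10 and 0.07 for CCNT2. CCNC, the Mediator cyclin, fell by 0.28 and 0.36 (adjusted p = 0.000458 and 1.6e-05), or by 0.13 and 0.19 with the trend subtracted. None of the 3 genes passed in the libraries labelled shSHCBP1. CCNH, the cyclin of the CDK-activating kinase, was at 45, 52 and 51.7 CPM in the shSHCBP1_1 libraries and 45.4, 50.4 and 45.9 CPM in the shSHCBP1_2 libraries, against 59.8, 62.7 and 55.4 CPM in NC. It changed by -0.26 (SE 0.08, adjusted p = 0.0133) and -0.33 (SE 0.08, adjusted p = 0.00118), and passed in neither set with total counts. In shTMEM45A it was at 63.9, 69.8 and 69.8 CPM in set 4 and 59.2, 69.6 and 65.2 CPM in set 2. It passed as higher in set 4 (0.19, adjusted p = 0.0209), but not with total counts (0.00, adjusted p = 0.984) and in 3 of 6 fits that left out a library (adjusted p of up to 0.11), and with the trend subtracted it gave -0.07. In set 2 its change of 0.13 did not pass, and was -0.11 with the trend subtracted.

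The transcription kinases split in shTMEM45A. CDK9, the kinase of P-TEFb, rose to 112 to 113 CPM in set 4 and 85.5 to 111 CPM in set 2, against 72 to 78.2 CPM in NC (log2 changes 0.56 and 0.38, or 0.15 and -0.02 with the length trend subtracted). CDK8 and its paralogue CDK19, the Mediator kinases, fell by 0.90 and 0.50 for CDK8 and 0.50 and 0.75 for CDK19. CDK13, which phosphorylates RNA polymerase II, fell by 0.96 and 0.93. Its mouse transcript, at 12548 nt, is the longest of the 47, and the values with the trend subtracted were 0.07 and 0.15. CDK19 went to 0.06 and -0.15 by the same step. CDK12, the partner paralogue of CDK13, fell by 0.27 and 0.18 and went to 0.30 and 0.43. Its call in set 2 was lost without library 3 of that set or of NC (adjusted p of up to 0.112). CDK7, the CDK-activating kinase, passed in none of the 4 sets against NC, with 0.17 and -0.01 in shTMEM45A, or -0.11 and -0.28 with the trend subtracted. In the libraries labelled shSHCBP1, CDK8 was higher in shSHCBP1_2 (0.32, adjusted p = 0.00954), CDK9 lower in shSHCBP1_2 (-0.20, adjusted p = 0.0318) and CDK13 lower in shSHCBP1_1 (-0.31, adjusted p = 0.0128). Each of the 3 calls was lost without some single library, with adjusted p of up to 0.0561, 0.124 and 0.0688.

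The remaining genes form the group of CDK5, cyclins I and Y and kinases of the PCTAIRE kind, most of them known from postmitotic cells or from signalling outside the cycle. CDK5, best known from neurons, showed the largest rise of the 47 in shTMEM45A. It was at 108, 87.8 and 86.3 CPM in the set 4 libraries and 105, 84.4 and 106 CPM in the set 2 libraries, against 38.8, 30.3 and 35.1 CPM in NC, a 2.71-fold and 2.84-fold rise with log2 changes of 1.44 (SE 0.09, adjusted p = 1.3e-14) and 1.50 (SE 0.09, adjusted p = 3.8e-15). In libraries labelled shSHCBP1 it was at 33.9, 31.3 and 32.6 CPM in shSHCBP1_1 and 29.8, 27.8 and 29.3 CPM in shSHCBP1_2. The lower level in shSHCBP1_2 passed at adjusted p = 0.0476, a call kept in 1 of 6 fits that left out a library. CDK17, a PCTAIRE kinase, was at 10.4, 7.77 and 12.3 CPM in the set 4 libraries and 6.03, 10.1 and 8.06 CPM in the set 2 libraries, against 32.6, 39.1 and 33 CPM in NC. It fell 3.44-fold and 4.31-fold, with log2 changes of -1.78 (SE 0.13, adjusted p = 4.5e-13) and -2.11 (SE 0.14, adjusted p = 1.5e-14). For the libraries labelled shSHCBP1 it was at 27.6, 27.9 and 27.9 CPM in shSHCBP1_1 and 33.4, 29.3 and 32.6 CPM in shSHCBP1_2. The fall in shSHCBP1_1 just passed (adjusted p = 0.0494) and was lost without any 1 library (adjusted p = 0.0669 to 0.268).

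CDK16, the paralogue of CDK17, was at 351, 363 and 356 CPM in the shSHCBP1_1 libraries and 328, 340 and 323 CPM in the shSHCBP1_2 libraries, against 433, 427 and 448 CPM in NC. It changed by -0.29 (SE 0.04, adjusted p = 1.6e-05) and -0.40 (SE 0.04, adjusted p = 3.4e-08) and passed under all 4 scalings and without any 1 library. In shTMEM45A it was at 411, 410 and 387 CPM in set 4 and 360, 336 and 373 CPM in set 2, and changed by -0.12 (SE 0.04, adjusted p = 0.0196) and -0.29 (SE 0.04, adjusted p = 8.5e-07), or by -0.01 and -0.16 with the length trend subtracted. The value in set 4 did not pass without its column ending 3 or without NC library 3 (adjusted p of up to 0.0891). Counts of CDK17 per count of CDK16 were 0.019 to 0.0318 in set 4 and 0.0167 to 0.0302 in set 2, against 0.0736 to 0.0917 in NC. CCNI, an atypical cyclin, was at 218, 211 and 229 CPM in the set 4 libraries and 196, 223 and 209 CPM in the set 2 libraries, against 324, 338 and 321 CPM in NC. It fell by 0.58 and 0.65 (adjusted p = 8.6e-12 and 6.2e-13). In the libraries labelled shSHCBP1 it was at 273, 283 and 271 CPM in shSHCBP1_1 and 277, 274 and 258 CPM in shSHCBP1_2, below every NC library, with changes of -0.25 (SE 0.05, adjusted p = 0.000404) and -0.28 (SE 0.05, adjusted p = 4.6e-05) that did not pass with total counts. CCNY and CDK14, which pair at the cell membrane, fell in shTMEM45A by 0.44 and 0.44 for CCNY and 0.99 and 0.59 for CDK14. With the length trend subtracted these became 0.12 and 0.15 for CCNY and -0.52 and -0.09 for CDK14. Neither passed in the libraries labelled shSHCBP1.

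**Figure D5:**
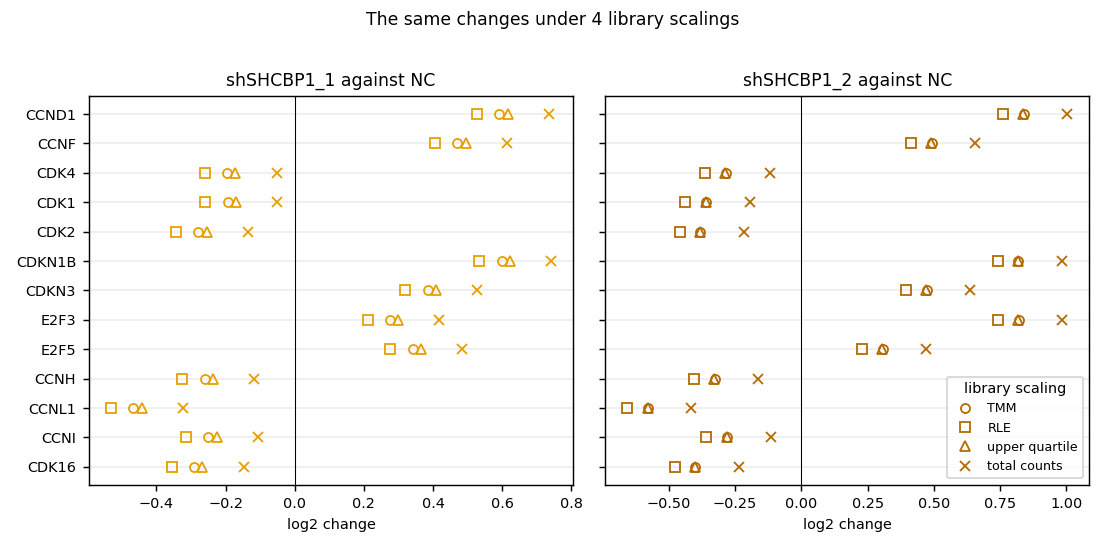
Log2 change against NC of the 13 genes that passed in both sets labelled shSHCBP1, under TMM, RLE, upper quartile and total-count scaling, for shSHCBP1_1 (left) and shSHCBP1_2 (right). Every gene kept its sign under the 4 scalings, while total counts moved each point to the right, by about the shift of all genes (0.14 and 0.17).

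The comparisons of both targets with NC share the NC libraries, so their values stand side by side above with no count of shared calls. The direct comparison of the mean of the shTMEM45A sets with the mean of the sets labelled shSHCBP1 uses no NC library. It called 15 of the 47 higher and 26 lower, against a background of 35.2% and 44.1%, and crosses the tables. Total counts gave 8 higher and 37 lower there, where 4622 of the 19051 genes tested were higher and 10926 lower. They shifted the median of all genes by -0.34. CCND1 was lower in shTMEM45A than in the libraries labelled shSHCBP1 (-0.28, SE 0.05, adjusted p = 2.2e-05), but the difference was -0.01 with the length trend subtracted. CDKN3 was higher (1.01, SE 0.05, adjusted p = 4.1e-17), and E2F3 did not pass (-0.11, SE 0.06, adjusted p = 0.112), with 0.39 after subtracting the trend.

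Within a target, shSHCBP1_2 differed from shSHCBP1_1 in 1 of the 47 genes, E2F3, which was higher, where 0.499% of all genes were higher and 0.336% lower. Set 2 differed from set 4 in 7 of the 47. CCNB2 and CDK8 were higher and RBL2, CDK4, CDKN2A, CCNL2 and CDK16 lower, against a background of 1.95% higher and 3.32% lower. These comparisons lie within 1 table. A fit of only the groups compared called 12 genes between the shSHCBP1 sets, and the shares of all genes above do not belong to that fit. Between the shTMEM45A sets edgeR then called 0, with 8 at an unadjusted p under 0.05, while DESeq2 over all 15 libraries called 7.

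Other genes of the pathway were taken from 5 lists, and in shTMEM45A each list held genes that rose and genes that fell. The length trend was not subtracted from the values of these lists, and its part in them was not tested. Of 20 regulators of CDK activity, 11 rose and 6 fell in both sets, where 32.6% and 36.2% of all genes did. The ubiquitin-conjugating enzyme CDC34 changed by 1.26 and 1.37 on the log2 scale, and the CDK-binding protein CKS2 by 0.87 and 0.70. CDK5RAP3, a CDK5-binding protein, changed by -2.58 and -3.22. Their median was 0.20, beside -0.05 over all genes. Of 17 partners of RB, E2F and the DREAM repressor complex, 8 rose and 9 fell, with a median of -0.28. FOXM1, the transcription factor of mitotic genes, changed by -1.76 and -1.99, the RB-binding chromatin protein RBBP4 by -1.28 and -1.44, and L3MBTL2, of an E2F6 complex, by 1.44 and 1.73. Of 21 partners of the transcription kinases, 7 rose and 12 fell, with a median of -0.32, among them MED12, which activates CDK8 in Mediator, at -1.85 and -1.89, and MEPCE, which caps the 7SK RNA that holds P-TEFb, at 1.59 and 1.76.

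Of 22 E2F targets of G1/S, 8 rose and 10 fell in shTMEM45A, beside the same 32.6% and 36.2% of all genes, with a median of -0.03. The helicase subunit MCM2 changed by -3.54 and -4.27 and the checkpoint adaptor CLSPN by -2.99 and -3.35, while thymidine kinase TK1 changed by 1.85 and 1.99 and the replication factor GINS2 by 0.96 and 0.99. Of 22 genes of G2 and mitosis, 7 rose and 11 fell, with a median of -0.35. The topoisomerase TOP2A changed by -1.83 and -1.90 and the checkpoint kinase BUB1B by -1.46 and -1.45, while the spindle protein NUSAP1 changed by 1.10 and 1.41. In shSHCBP1_1 and shSHCBP1_2, 1 of the 22 G1/S genes rose and 6 fell, where 8.3% and 9.45% of all genes did. The falls included the ribonucleotide reductase subunit RRM2 (-0.54 and -0.73) and the licensing factor CDT1 (-0.43 and -0.42). Of the G2 and mitosis genes 7 rose and 1 fell, with the kinetochore protein CENPF at 0.46 and 0.62 and TOP2A at -0.21 and -0.37. The other 3 lists gave 2 rises and 1 fall of 20 (CDK regulators), 1 and 3 of 17 (RB and E2F partners), and 6 and 4 of 21 (transcription kinase partners). The medians of the 5 lists in the libraries labelled shSHCBP1 lay from -0.07 to 0.12, beside 0.01 over all genes. TK1 rose in both targets, by 0.20 and 0.47 in the libraries labelled shSHCBP1.

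Rows named as a pseudogene or as an antisense, intronic or divergent neighbour of the 47 held few counts. Neighbours with other names were not looked up. Pseudogenes of the 47 with a row of their own held at most 13 counts in any library, and antisense, intronic or divergent neighbours at most 19. By share of the member's counts, RB1-DT aside, the highest was CCNT2-AS1 at 2.76%. How reads were shared between copies is not given in the sources used here, so reads that could belong to either copy could not be counted.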

How the data were processed

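The authors deposited 2 tables of raw counts, one for NC and shSHCBP1 and one for shTMEM45A, as integers per gene symbol without normalization. Per the labels' protocols, poly-A RNA went into NEBNext Ultra libraries, a kit that marks no strand, and was read as paired ends. The submitters' processing notes name mm10 although the symbols are human, so no coordinates are given. Which aligner and counter were run is not given in the sources used here. All library columns entered the analysis (0 left out). Names on more than 1 row, and any in the form of a date, were dropped (200 names, 1768 rows in all).

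One shTMEM45A set was identified from its column number 2. The columns numbered 4 match no label by number and were assigned to the remaining set by elimination, without telling its libraries apart.

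The main test was the edgeR 4.0.16 quasi-likelihood F test (R 4.3.3), with TMM scaling, filterByExpr (minimum 10 per library, 15 in total), all 15 libraries in 1 fit, Benjamini-Hochberg adjustment over 19051 genes and a threshold of 0.05. The SE was taken as the size of the log2 change over the root of F. Replicate libraries differed by more than counting noise (chi-square per gene 1.74 to 9.15). Alternatives were RLE, upper quartile and total-count scaling, no filter, a count minimum of 50, DESeq2 1.42.0, fits of only the groups compared, single libraries left out and a replicate block.

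The subtraction of the length trend was chosen after the data were seen. It used a lowess curve (statsmodels 0.14.6, fraction 0.3) over 10862 genes, all 47 among them. These had a mean count of at least 50 and a coding mouse transcript of the same symbol, of which the longest was taken. Over all genes tested too few have such a length for the check.

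The 47 genes and the lists were chosen with earlier results of these data known. Values of every library are given for genes over 2-fold in both sets of a target, for up to 6 rises and 6 falls shared by both sets labelled shSHCBP1, and for RB1, CDKN2A, CCND1, CDK4 and CDK6. From each list up to 2 rises and 2 falls per target could be named. A withheld marker and the sum that needs it are not reported here.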

Additional observations from a re-analysis of the deposited data

Results flagged for a closer look

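E2F3 differed between the sets labelled shSHCBP1. The log2 difference of shSHCBP1_2 over shSHCBP1_1 was 0.54 by the test of that difference (adjusted p = 0.00175), and it passed in 6 of 6 fits that left out a library.

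In 7 genes set 2 of shTMEM45A differed from set 4 by the same kind of test. CDK4 had a difference of -0.36 (adjusted p = 0.00145) and passed in 6 of 6 fits that left out a library. CCNB2, with 0.22, and CDK16, with -0.17, passed in 4 of 6, CDKN2A and CCNL2, each with -0.19, in 3 of 6, CDK8, with 0.40, in 2 of 6 and RBL2, with -0.47, in 1 of 6. All 7 were lost in a fit of these groups alone.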

How the results depend on the processing

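Leaving out 1 library gave 39 to 42 of 47 genes in set 4, 39 to 41 in set 2, and 39 to 42 for shTMEM45A against shSHCBP1. Against NC the same step gave 9 to 13 in shSHCBP1_1 (9 without its library 1, 10 without NC library 2), where 18 passed, and 15 to 18 in shSHCBP1_2, where 20 did. Between the shSHCBP1 sets it gave 1 to 1, and between the shTMEM45A sets 2 to 7 (2 without the set 4 column ending 1, 3 without that ending 2 or 3, 4 without set 2 library 2). Between the shSHCBP1 sets total counts, no filter and DESeq2 each called 2 genes and a fit of only these groups 12. The share of all genes in that last fit is not given here. A fit of only the shTMEM45A sets called 0 (8 at an unadjusted p under 0.05, and 7 by DESeq2 over all libraries), and the cause was not tested.

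The replicate numbers did not pair libraries: correlations of same-numbered libraries ran from -0.035 to 0.038. With a replicate block, which left set 4 out of the fit, 18 genes passed in shSHCBP1_1, 21 in shSHCBP1_2, 42 in set 2 and 1 between the shSHCBP1 sets.

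The 23 genes given by library were picked mostly for large or passing changes. Of their 1357 recomputed changes, 1230 kept direction and side of the threshold (or, without a test, stayed within the spread between replicates). A further 70 came out weaker, 19 stronger and 33 moved. With the length trend subtracted 54 stayed the same, 33 moved and 5 reversed. The 5 were CCNH in set 4 (-0.07), CDK6 in sets 4 and 2 (0.50 and 0.59) and CDKN2A in sets 4 and 2 (-0.58 and -0.79). Mouse lengths stand in for human ones there. Depth limits CCNE2 most, with 16 to 32 counts per shTMEM45A library.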
